A study of Mus musculus with 6 samples.

Results

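The 10 genes examined here encode the subunits of the hypoxia-inducible factors (HIF), the proteins that mark these subunits for degradation, and genes that respond to low oxygen. They were taken by symbol from the 24532 genes of the expression table, namely *Hif1a*, *Epas1*, *Arnt*, *Egln1*, *Egln3*, *Vhl*, *Adm*, *Ankrd37*, *Ndrg1* and *P4ha1*, and all 10 were found. RNA was measured in gastrocnemius (GAS) muscle of C57BL/6 male mice aged 20 weeks, as 3 libraries labelled WT and 3 labelled muscle-specific *Sirt6* KO. Both groups were *Sirt6* flox/flox, and the *Sirt6* KO group additionally carried *Myl1-Cre*. This Cre is driven by the myosin light chain 1 gene and acts mainly in fast-twitch fibers from embryonic life onward. Slow fibers, vessel cells and other cells of the muscle may thus keep *Sirt6*, which these data do not measure by cell type. The comparison asks how these genes differ between the muscles of the 2 genotypes.

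HIF is a pair of an oxygen-regulated alpha subunit and a constant partner. When oxygen is present, prolyl hydroxylases modify the alpha subunit, the von Hippel-Lindau protein binds it, and it is degraded. When oxygen falls, the alpha subunit persists, joins its partner and binds the hypoxia response element, whose core is ACGTG or GCGTG, in genes for vessel growth, glycolysis, collagen modification and the hydroxylases themselves. Much of this control acts on the protein, which RNA levels do not measure. Sirt6 is known as a histone deacetylase that acts as a corepressor of HIF-1α at glycolytic genes.

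Promoter sequences show which of the 10 genes hold this core next to their start. RefSeq sequences on GRCm38.p6, from 250 bases before to 50 bases after the start, were given for 8 of the 10 genes, not for *Epas1* and *Ndrg1*. A core on either strand was found in 7 of the 8, the exception being *Vhl*, and 60.2% of the 13896 windows counted for the genes tested held one. That count leaves out the windows of a single chromosome, which holds none of the 10 genes. Where CACGTG occurs, as in *Hif1a*, ACGTG is counted on both strands. A match describes the letters only. The stretch of the *P4ha1* window that precedes the annotated gene is printed, since *P4ha1* alone of the 10 genes passed the test below, and 25-base stretches are printed around its core nearest the start and around the cores of *Egln1* and *Egln3*, known feedback targets of HIF, which were chosen after their values were seen. The core is in capitals, on the gene's own strand or as its reverse complement, and distances run from the first base of the core to the start of the RefSeq window. For *P4ha1* this start, at 59323296, lies inside the annotated gene, whose first base is 59323197, so that its cores lie 64 and 27 bases before the gene and, for the last, 83 bases inside it.
P4ha1, chr10:59323046-59323196, plus strand, the bases next to the gene, cores 163 and 126 bases before the window's start: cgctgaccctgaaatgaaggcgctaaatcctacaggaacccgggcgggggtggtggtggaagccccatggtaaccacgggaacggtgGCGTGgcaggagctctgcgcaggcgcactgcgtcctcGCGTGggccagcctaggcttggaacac
P4ha1, inside the gene, 16 bases before the window's start: tgacagagcgCACGTagcgagggct
Egln1, 126 bases before the start: ccggcccgccGCGTGcgcgcggccc
Egln1, 68 bases before the start: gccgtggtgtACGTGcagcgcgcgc
Egln3, 229 bases before the start: tgcatctcagACGTGagatccaggt

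The libraries held 44845763 to 63016899 counts on genes, and 1 count was worth between 0.0165 and 0.0212 normalized CPM (counts relative to the library total, with TMM factors applied). *Sirt6* itself was at 2.23 to 2.88 CPM in the libraries labelled WT and at 6.68 to 7.81 in those labelled *Sirt6* KO, higher where it should be lower. This difference passed the test described below (log2 fold change 1.48, edgeR adjusted p = 0.0113). It did not pass without KO 1 or without KO 3 (log2 fold change 1.43 and 1.54, edgeR adjusted p = 0.0606 and 0.0650). Those fits called only 8 and 13 of all genes. The libraries are therefore called by their labels, on which every direction given here depends. Counts per gene do not separate the deleted exons from the others. The skeletal muscle genes *Acta1*, *Ckm*, *Myh4*, *Myh1*, *Tnnt3*, *Pvalb* and *Mylpf* together took 129513 and 138037 CPM in WT 1 and 2. Their sum was higher in WT 3, at 204956 CPM, and was 189469 to 216312 in the libraries labelled *Sirt6* KO. None of these genes was at 0 in any library. WT 3 stood apart from WT 1 and WT 2 in 8 slow fiber genes, whose sum was 1389 CPM in WT 3 against 7302 and 8166, and 1672, 4793 and 2071 in KO 1, 2 and 3. It stood apart in other marker sums too. These were 46.6 CPM in WT 3 against 297 and 291 in WT 1 and 2 for 5 erythroid genes. They were 1.62 against 15.8 and 19.1 for 4 adipocyte genes, and 55.3 against 99.2 and 133 for 4 smooth muscle genes. For 5 macrophage genes WT 3, at 15.1, lay between WT 2 at 12.5 and WT 1 at 51.8. In tissue RNA, fewer cells of a type and less RNA per cell cannot be told apart.

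One of the 10 genes, *P4ha1*, passed the test, and it was lower in the libraries labelled *Sirt6* KO. Genes were tested by the quasi-likelihood method of edgeR, Benjamini-Hochberg adjusted over the 13801 genes that passed the filter on low counts, all 10 members included, called at an adjusted p under 0.05. Of all genes tested, 16.2% were called, so 1 of 10 is not more than the background. Point estimates were lower for 6 members, against 51.6% of all genes, and higher for 4, with a median log2 fold change of -0.23 against -0.021 over all genes tested. Values did not overlap between the groups in 2 members, *Egln1* and *P4ha1*, against 40.0% of all genes. A change over 2-fold with an unadjusted edgeR p under 0.05 was met by *Egln3* and *Ankrd37*, against 7.83% of all genes. The study's volcano plot used the same limits with a DESeq2 Wald test, and its legend does not say whether p was adjusted. With 3 libraries against 3, a two-sided exact permutation test allows no p under 0.1.

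**Figure D1:**
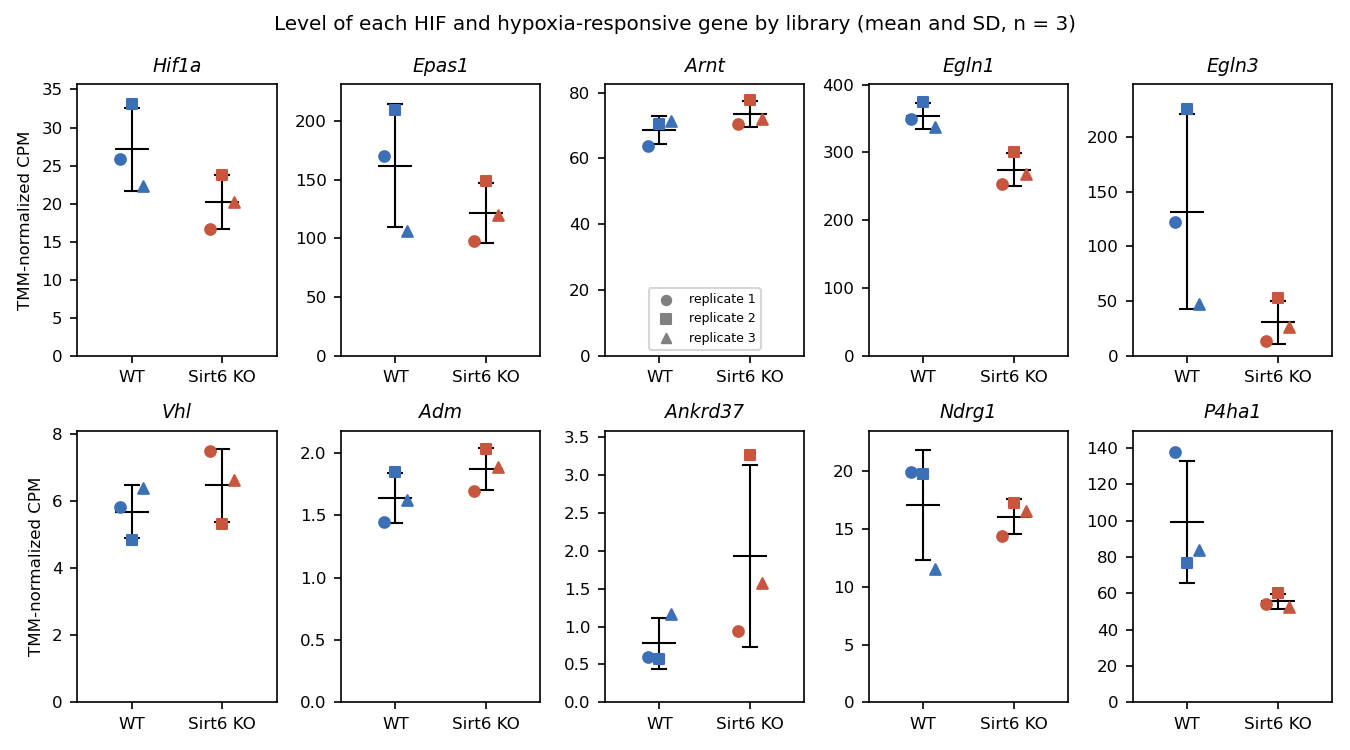
Normalized CPM (linear axis from 0) of each of the 10 genes in the 3 libraries labelled WT and the 3 labelled Sirt6 KO, with symbols for replicates and bars for the mean and SD. The groups lie apart only for Egln1 and P4ha1, and Egln3 runs from 14.0 to 225 CPM.

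The HIF subunits did not pass the test. *Hif1a* (NCBI gene 15251; chromosome 12 of GRCm38, 73901324 to 73947554), which encodes the alpha subunit HIF-1α, was at 25.9, 33.1 and 22.3 CPM in WT 1, 2 and 3 and at 16.7, 23.7 and 20.2 in KO 1, 2 and 3. Its means were 27.1 ± 5.50 (SD, n = 3) and 20.2 ± 3.51 (SD, n = 3). KO 2 exceeded WT 3, so the groups overlapped, and the log2 fold change was -0.42 (95% interval -0.86 to 0.012, edgeR adjusted p = 0.150). A fit without the GC trend, in which each library was freed of the dependence of its values on the GC content of transcripts, gave -0.14 (edgeR adjusted p = 0.648). The longest *Hif1a* transcript has a GC content of 41.3%, the lowest of the 10 genes.

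*Epas1* (gene 13819; chromosome 17, 86753864 to 86833410), the gene of HIF-2α, which is known for its high expression in endothelium, was at 171, 209 and 106 CPM in WT 1, 2 and 3. In KO 1, 2 and 3 it was at 97.5, 149 and 119.6 CPM. WT 3 was below KO 2 and KO 3, while WT 1 and WT 2 exceeded all of KO 1, 2 and 3. This gave -0.41 on the log2 scale (interval -1.02 to 0.20, edgeR adjusted p = 0.299). With 1 library left out it ran from -0.64 without WT 3 (adjusted p = 0.0467) to -0.18 without WT 2 (adjusted p = 0.690). *Epas1* was called only without WT 3, in a fit that called 32.5% of all genes. The summed level of 8 endothelial markers (*Pecam1*, *Cdh5*, *Kdr*, *Tek*, *Tie1*, *Emcn*, *Esam* and *Cldn5*) moved the same way among the WT libraries, at 286 and 319 CPM in WT 1 and 2 against 171 in WT 3, and lay between 205 and 208 in the libraries labelled *Sirt6* KO. None of the 8 was called and none was at 0 in any library. Their part in the level of *Epas1* was not tested.

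*Arnt* (gene 11863; chromosome 3, 95434367 to 95497240), which encodes the constant partner HIF-1β, was the most even of the subunits. It was at 63.9, 70.6 and 71.4 CPM in WT 1, 2 and 3 and at 70.4, 77.8 and 72.1 in KO 1, 2 and 3. The groups overlapped, with a log2 fold change of 0.098 and an interval from -0.14 to 0.33 (adjusted p = 0.522, edgeR). The interval includes a rise of up to 0.33 and a decrease down to -0.14 on the log2 scale. Per length, within a library, deposited FPKM of *Epas1* exceeded that of *Hif1a* by 5.87, 5.62 and 4.24 times in WT 1, 2 and 3 and by 5.18, 5.57 and 5.25 times in KO 1, 2 and 3. The mean log2 ratio was 2.38 ± 0.256 (SD, n = 3) in WT and 2.42 ± 0.0557 (SD, n = 3) in *Sirt6* KO, a difference within the spread of the libraries (two-sided exact permutation test, p = 1.0).

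Both hydroxylases had lower point estimates without passing the test, and *Egln3* had the largest change of the 10 genes on the log2 scale. *Egln1* (gene 112405; chromosome 8, 124908587 to 124949254), the gene of PHD2, the main hydroxylase that tags HIF alpha subunits for degradation, was at 349, 375 and 337 CPM in WT 1, 2 and 3 and at 254, 301 and 268 in KO 1, 2 and 3. Each library labelled *Sirt6* KO was below each WT library, and the means were 354 ± 19.3 and 274 ± 24.3 (SD, n = 3 each). The log2 fold change of -0.37 (standard error 0.12, interval -0.65 to -0.081) missed the threshold over all genes (edgeR adjusted p = 0.0803, and a two-sided exact permutation test gave p = 0.1). DESeq2 gave an adjusted p of 0.0145, where 26.9% of all genes were called, and the fit without the GC trend gave -0.57 (adjusted p = 0.0399).

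*Egln3* (gene 112407; chromosome 12, 54178981 to 54203874) encodes PHD3, a hydroxylase whose transcript is itself induced by HIF. It was at 122, 225 and 47.7 CPM in WT 1, 2 and 3, and at 14.0, 52.5 and 26.2 in KO 1, 2 and 3. The spread was wide within both groups, 4.72-fold from the lowest to the highest WT library and 3.76-fold among those labelled *Sirt6* KO. The groups overlapped only in that KO 2 exceeded WT 3. The log2 fold change was -2.09 (standard error 0.64, interval -3.58 to -0.60), which missed the threshold (edgeR adjusted p = 0.0633, and a two-sided exact permutation test gave p = 0.2). With 1 library left out it ran from -2.70 without KO 2 to -1.46 without WT 2 (adjusted p = 0.175), and it was called only without WT 3 (-2.49, adjusted p = 0.0190). The fit without WT 3 called 32.5% of all genes. DESeq2 on all libraries gave -2.10 with an adjusted p of 0.0294.

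Within each group *Egln3* was highest in the library with the most RNA of slow fiber genes (*Myh7*, *Myh2*, *Tnni1*, *Tnnc1*, *Tnnt1*, *Myl2*, *Myl3* and *Atp2a2*). WT 2 had the highest slow fiber sum and the highest *Egln3* of the 6 libraries, and KO 2 the highest of both among those labelled *Sirt6* KO. This was not particular to slow fiber genes. The sums of 4 smooth muscle genes (133 CPM in WT 2 and 70.0 in KO 2) and of 4 adipocyte genes (19.1 and 35.8) were also highest in these libraries of each group. Sums of the remaining marker lists were not highest in both. WT 3, with the lowest slow fiber sum of all 6, still had more *Egln3* than KO 1 and KO 3, with sums of 1672 and 2071 CPM. The sums of the 8 slow fiber genes overlapped between the groups (1389 to 8166 CPM in WT, 1672 to 4793 in *Sirt6* KO). All 8 genes had lower point estimates (median log2 fold change -1.11), against 51.6% of all genes. None of the 8 was called and none was at 0, and their part in the difference of *Egln3* was not tested. The ratio of *Egln3* to *Egln1* in FPKM was 0.461, 0.791 and 0.186 in WT 1, 2 and 3 and 0.0724, 0.230 and 0.128 in KO 1, 2 and 3. The mean log2 ratio differed by -1.66 between the groups, within overlapping values (two-sided exact permutation test, p = 0.2), so a larger difference of *Egln3* than of *Egln1* was not shown.

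**Figure D2:**
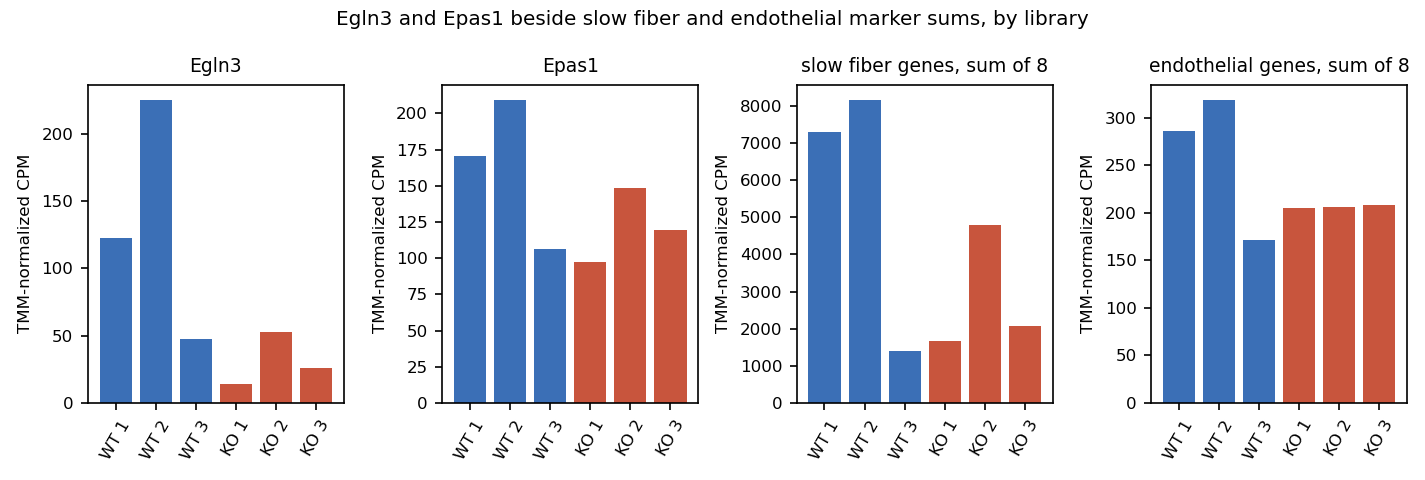
Normalized CPM (linear axes from 0) of Egln3, of Epas1, and of the sums of 8 slow fiber and 8 endothelial genes, one bar per library. Egln3 and the slow fiber sum are both highest in WT 2 and both highest in KO 2 among the libraries labelled Sirt6 KO, and WT 3 has the lowest slow fiber sum, 1389 CPM, and the lowest endothelial sum, 171 CPM.

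*Vhl* (gene 22346; chromosome 6, 113623994 to 113631634) encodes the ligase subunit that recognizes hydroxylated HIF alpha. It was at 5.83, 4.84 and 6.39 CPM in WT 1, 2 and 3 and at 7.49, 5.31 and 6.63 in KO 1, 2 and 3. These ranges overlapped, with a log2 fold change of 0.19 (interval -0.25 to 0.63, adjusted p = 0.513, edgeR). Together the sensing genes thus had a lower point estimate for both hydroxylases and a higher one for *Vhl*, none of them past the threshold.

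Among the hypoxia-responsive genes, *P4ha1* fell and the others did not pass. *P4ha1* (gene 18451; chromosome 10, 59323197 to 59373304) encodes the catalytic subunit of the prolyl hydroxylase that stabilizes collagen, and its promoter cores are printed above. It was at 138, 76.4 and 83.6 CPM in WT 1, 2 and 3 and at 54.1, 60.4 and 52.5 in KO 1, 2 and 3. The groups did not overlap, and WT 1 lay far above the other libraries. The means were 99.3 ± 33.6 and 55.7 ± 4.13 (SD, n = 3 each), or -0.83 ± 0.22 (standard error) on the log2 scale (interval -1.36 to -0.31), 1.78-fold lower (adjusted p = 0.0453 by edgeR, and a two-sided exact permutation test gave p = 0.1). The call was close to the threshold. Without WT 1 the log2 fold change was -0.51 (adjusted p = 0.0689), and over the 6 fits that left out a library the adjusted p ran from 0.0280 to 0.151 and stayed under 0.05 only without WT 3. The fit without WT 3 called 32.5% of all genes. Without the GC trend the log2 fold change of *P4ha1* was -0.71 (adjusted p = 0.0854).

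The fibroblast markers *Pdgfra*, *Col1a1*, *Col3a1*, *Dcn* and *Lum*, genes of the cells that make most collagen, summed to 864, 669 and 468 CPM in WT 1, 2 and 3 and to 571, 547 and 576 in KO 1, 2 and 3. Their sum was highest in WT 1, as was *P4ha1*, but WT 3 had the lowest sum of the 6 libraries and more *P4ha1* than any library labelled *Sirt6* KO. None of the 5 was called and none was at 0, and their part in the level of *P4ha1* was not tested.

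*Ankrd37* (gene 654824; chromosome 8, 45996908 to 46000414), a small ankyrin-repeat gene known as a HIF target, was at 0.60, 0.57 and 1.17 CPM in WT 1, 2 and 3. In KO 1, 2 and 3 it was at 0.94, 3.27 and 1.58 CPM, from 55, 198 and 87 counts. KO 2 and KO 3 were above every WT library, whereas KO 1 was below WT 3. The log2 fold change was 1.30 (standard error 0.52, interval 0.088 to 2.50, adjusted p = 0.122, edgeR), and without KO 2 it was 0.69 (adjusted p = 0.343). The gene overlaps *Ufsp2*, which had 1534 to 2400 counts, by 51 bases, and the sources do not say whether reads were counted by strand. The annotated lncRNAs *Gm28863*, *Gm15283* and *Gm46060* likewise overlap *Adm* over 2164, *Hif1a* over 12831 and *Egln1* over 9968 bases, and were not analysed here.

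*Adm* (gene 11535; chromosome 7, 110627657 to 110629820), the precursor of the vasodilator peptide adrenomedullin, was scarce and even. It was at 1.44, 1.85 and 1.62 CPM in WT 1, 2 and 3 and at 1.69, 2.03 and 1.89 in KO 1, 2 and 3, from 72 to 123 counts a library. The groups overlapped, with a log2 fold change of 0.19 (interval -0.32 to 0.70, adjusted p = 0.566, edgeR). *Ndrg1* (gene 17988; chromosome 15, 66929318 to 66969641), a stress-responsive gene induced by hypoxia in many cells, was at 19.9, 19.7 and 11.6 CPM in WT 1, 2 and 3 and at 14.4, 17.3 and 16.6 in KO 1, 2 and 3. All libraries labelled *Sirt6* KO lay inside the WT range, and the log2 fold change was -0.087 (interval -0.59 to 0.42, adjusted p = 0.800, edgeR).

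**Figure D3:**
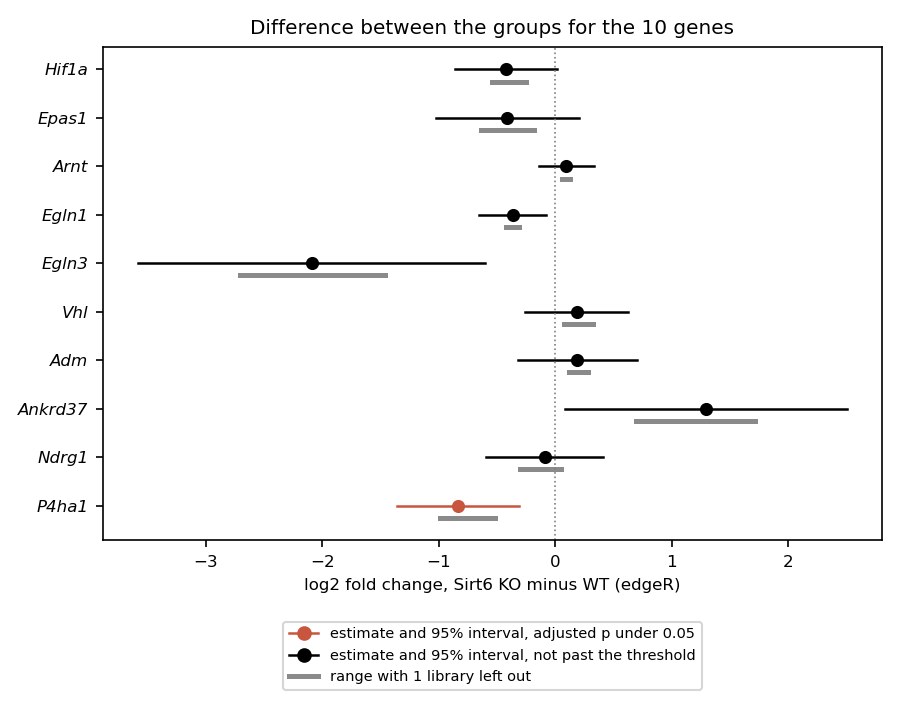
Log2 fold change (Sirt6 KO minus WT) of the 10 genes with its 95% interval, red where the adjusted p was under 0.05, and in grey the range of the estimates with 1 library left out. Only P4ha1 is red, at -0.83, and Egln3 lies lowest at -2.09 and Ankrd37 highest at 1.30, both with wide intervals.

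On the deposited TPM scale, which allows levels of different genes to be compared, *Egln1* was the most abundant of the 10 genes in every library, at 221 ± 31.4 TPM (SD, n = 3) in WT and 157 ± 11.2 in *Sirt6* KO. *Egln3*, *Epas1*, *P4ha1* and *Arnt* followed with means over all 6 libraries of 67.2, 56.8, 41.4 and 34.2 TPM, but their ranges overlapped and each neighbouring pair changed places in at least 2 libraries. In WT 1 and WT 2 *Egln3* was above *Epas1* (109.7 and 189.9 TPM against 76.5 and 88.3), whereas in the other 4 libraries it was below. *Arnt* was above *Ndrg1* in all 6 libraries with no overlap (means 34.2 and 12.2 TPM). *Ndrg1* and *Hif1a* (mean 10.6 TPM) overlapped. *Hif1a* lay above *Vhl* (4.67) without overlap, and *Vhl*, *Ankrd37* (3.04) and *Adm* (2.65) overlapped at the foot. Only *Egln1*, *Egln3*, *Epas1* and *P4ha1* were above the level of 80% of the genes tested, at percentiles 95.5, 88.1, 86.2 and 82.1.

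Patterns over the 6 libraries were compared by Pearson's r of log2 normalized CPM, among the 10 genes and 73 tested genes of the pathway lists described next. *Hif1a* was most like *Egln3* (r = 0.98), *Ak4* (0.95) and *Hk2* (0.95). *Epas1* was most like *Gbe1* (0.98), *Flt1* (0.97) and *Ak4* (0.94). With 6 points that share the split in slow fiber and other marker RNA and the group difference, these values only describe the order of the libraries.

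Outside the 10 genes, hypoxia-related genes went both ways. Of 54 hypoxia targets in 5 lists, 53 were tested, *Epo* being filtered out for low counts. Of these 8 fell, 3 rose and 42 did not pass, against 8.39% of all genes lower and 7.85% higher. Their median log2 fold change was -0.29 against -0.021 over all genes. Over all 73 tested pathway genes 13 (17.8%) were called, against 16.2% of all genes. Of these 73 genes, 35 (47.9%) were called without WT 3, in a fit that called 32.5% of all genes. Without WT 1 these shares were 8.22% and 3.15%, without WT 2 they were 6.85% and 1.78%, and without KO 2 they were 13.7% and 6.21%. Without KO 1, or without KO 3, only *Angptl4* of the 73 was called, where 8 and 13 of all genes were.

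**Figure D4:**
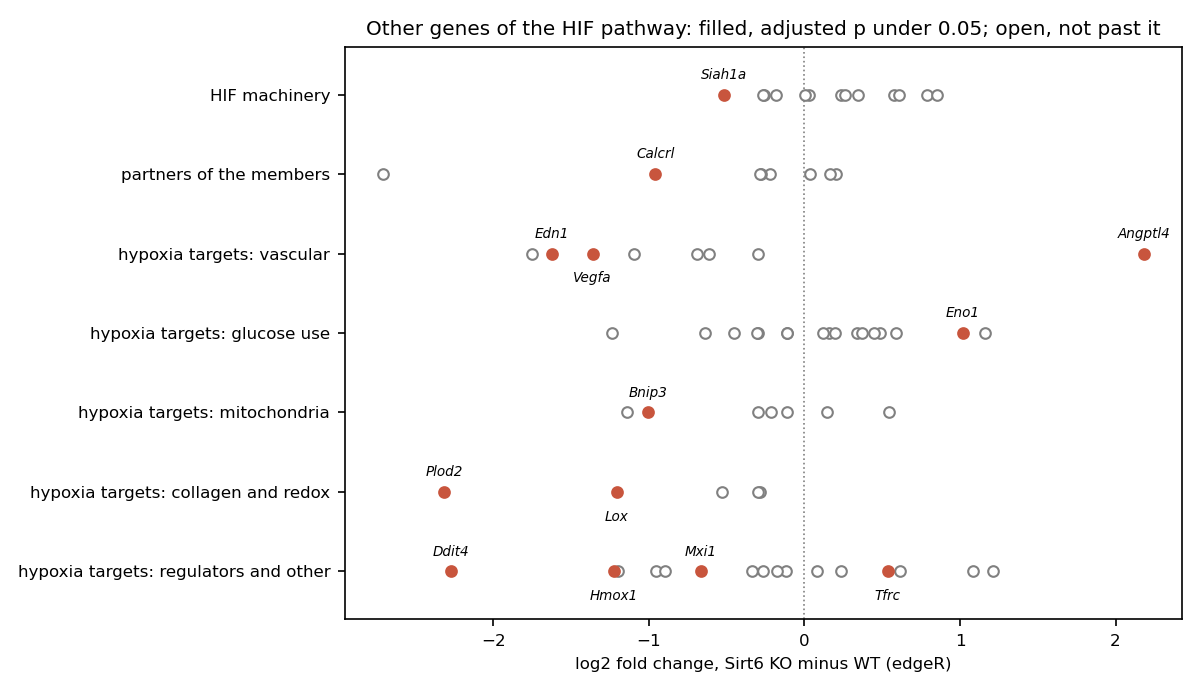
Log2 fold change (Sirt6 KO minus WT) of the tested genes of 7 pathway lists, filled and named where the adjusted p was under 0.05. Named genes lie on both sides of 0, from Plod2 at -2.32 to Angptl4 at 2.18.

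The vascular list held the widest span. Of its 8 genes 3 (37.5%) were called, against 16.2% of all genes, and 7 had lower point estimates, against 51.6% of all genes. *Vegfa*, the chief vessel growth factor, was at 462, 562 and 283 CPM in WT 1, 2 and 3 and at 108, 219 and 183 in KO 1, 2 and 3, and fell by 1.36 ± 0.33 (standard error) on the log2 scale (edgeR adjusted p = 0.0340). *Edn1*, the precursor of the vasoconstrictor endothelin, had 6.05 ± 1.42 CPM in WT and 1.96 ± 0.287 in *Sirt6* KO (SD, n = 3 each), and fell by 1.62 ± 0.24 (standard error) on the log2 scale (edgeR adjusted p = 0.0132). *Angptl4*, an inhibitor of lipoprotein lipase that is also a PPAR target, went the other way, at 7.94, 10.1 and 10.4 CPM in WT 1, 2 and 3 against 46.6, 35.2 and 47.1 in KO 1, 2 and 3. It rose by 2.18 ± 0.17 (standard error) on the log2 scale (edgeR adjusted p = 0.00873). Of the 13 pathway genes called, it alone was called again whichever of the 6 libraries was omitted. *Flt1*, a VEGF receptor of endothelium, had a log2 fold change of -1.10 and did not pass (adjusted p = 0.0956).

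Of 17 genes of glucose use, 1 was called, against 16.2% of all genes. *Eno1*, a glycolytic enolase, had 50.1 ± 0.980 CPM in WT and 101 ± 11.7 in *Sirt6* KO (SD, n = 3 each) and rose by 1.02 ± 0.12 (standard error) on the log2 scale (edgeR adjusted p = 0.0110), though reads from its near-identical copy *Eno1b* may be split between them. The other 16 did not pass, with a median of 0.16 over the list, among them *Hk2* (-1.23, adjusted p = 0.0707), *Pfkfb3* (1.16, 0.214), *Gapdh* (0.49, 0.139), *Slc2a1* (-0.11, 0.855) and *Ldha* (0.12, 0.714). WT 3 stood apart here too, with *Pfkfb3*, which makes an activator of glycolysis, at 109.97, 133 and 593 CPM in WT 1, 2 and 3 and at 553 to 706 in the libraries labelled *Sirt6* KO. Without WT 3, *Pfkfb3* was at 2.36 (adjusted p = 0.00384), and 8 genes of the list were called higher (*Pfkfb3*, *Aldoa*, *Tpi1*, *Gapdh*, *Eno1*, *Pkm*, *Ldha* and *Slc16a3*) and 1 lower (*Pdk1*), in a fit that called 32.5% of all genes.

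Of the 5 genes on the collagen and redox list (*P4ha2*, *Plod1*, *Plod2*, *Lox* and *Ero1l*) 2 fell, against 8.39% of all genes. All 5 had lower point estimates, against 51.6% of all genes. *Plod2*, the lysyl hydroxylase of collagen telopeptides, was at 7.46, 10.1 and 4.19 CPM in WT 1, 2 and 3 and at 1.32, 1.85 and 1.18 in KO 1, 2 and 3 (log2 fold change -2.32, standard error 0.35, adjusted p = 0.0137, edgeR). *Lox*, the enzyme that cross-links collagen, was at 20.7, 23.3 and 14.6 against 6.39, 11.1 and 7.90 CPM (-1.21, standard error 0.25, adjusted p = 0.0234), and at -1.01 without the GC trend it did not pass (adjusted p = 0.0522). In neither gene did the groups overlap, which also held for 40.0% of all genes. *P4ha2*, the paralog of *P4ha1*, did not pass (-0.29, adjusted p = 0.298), nor did *P4hb*, which encodes the partner subunit (0.16, adjusted p = 0.320).

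Of 7 mitochondrial genes 1 was called, against 16.2% of all genes. *Bnip3*, a mitophagy receptor, had 383 ± 51.4 CPM in WT and 191 ± 46.4 in *Sirt6* KO (SD, n = 3 each) and fell 2.01-fold (edgeR adjusted p = 0.0218). Without the GC trend the log2 fold change was -0.73 and did not pass (adjusted p = 0.0645). Its paralog *Bnip3l* did not pass (-0.21, adjusted p = 0.186). Of 16 tested regulators and others 4 were called, against 16.2% of all genes, and the other 12 did not pass. *Ddit4*, an inhibitor of mTORC1 that also responds to glucocorticoids, fell (log2 fold change -2.27, adjusted p = 0.0420). *Mxi1*, a Myc antagonist (-0.67, adjusted p = 0.0138), and *Hmox1*, heme oxygenase (-1.22, 0.0131), fell too. *Tfrc*, the transferrin receptor, rose (0.54, adjusted p = 0.0373). In *Ddit4* the libraries labelled *Sirt6* KO ranged from 20.3 CPM in KO 3 to 116 in KO 2.

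Of 13 other genes of the HIF machinery, 1 was called, against 16.2% of all genes. *Siah1a*, a ubiquitin ligase that targets prolyl hydroxylases, had 19.2 ± 1.74 CPM in WT and 13.5 ± 0.240 in *Sirt6* KO (SD, n = 3 each) and fell by 0.51 ± 0.11 (standard error) on the log2 scale (edgeR adjusted p = 0.0265). Without the GC trend it was -0.29 (adjusted p = 0.143). *Egln2*, the remaining prolyl hydroxylase of the family, was at 68.1, 75.8 and 105 CPM in WT 1, 2 and 3 and at 136, 103 and 132 in KO 1, 2 and 3, opposite in sign to *Egln1* and *Egln3* and not past the threshold (log2 fold change 0.57, adjusted p = 0.0807). The asparagine hydroxylase *Hif1an* (0.34, adjusted p = 0.289), *Hif3a* (0.24, 0.554) and the coactivators *Ep300* (-0.27, 0.120) and *Crebbp* (0.26, 0.154) did not pass either. *Arnt2*, a paralog of *Arnt*, was at 2.34 ± 0.426 CPM in WT and 4.05 ± 0.764 in *Sirt6* KO. The groups did not overlap in *Arnt2*, as in 40.0% of all genes, and it just missed the threshold (log2 fold change 0.79, adjusted p = 0.0559).

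Of 8 tested partners of the responsive genes, *Calcrl*, the receptor that binds adrenomedullin together with a RAMP protein, was the 1 gene called, against 16.2% of all genes. It was at 15.9, 13.5 and 11.1 CPM in WT 1, 2 and 3 and at 6.46, 6.83 and 7.57 in KO 1, 2 and 3, and fell by 0.96 ± 0.16 (standard error) on the log2 scale (edgeR adjusted p = 0.0165). It was at -0.58 on that scale (adjusted p = 0.0746) after removal of the GC trend. *Ramp2* (-0.22, adjusted p = 0.501) and *Ramp3* (-2.71, 0.0710), its cofactors, did not pass.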

How the data were processed

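Poly-A RNA of 6 GAS libraries was sequenced. The submitters' processing notes name HISAT2 2.1.0, Bowtie2 2.3.4.1 and StringTie 2.1.3b on mm10 (GRCm38), whereas the reporting summary names STAR; the methods and labels also name different library kits. Deposited gene counts are unscaled integers. The authors' FPKM values are scaled to gene length and depth, and their deposited TPM values to a fixed sum per library.

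Counts were analysed with edgeR 4.0.16 (R 4.3.3): filterByExpr, TMM, quasi-likelihood F test on group, Benjamini-Hochberg adjustment over 13801 genes, with standard errors and 95% intervals derived from the test. Scripts were checked on simulated data. The labels number the libraries as replicates; where these are not separate animals, p-values measure only technical spread. Alternatives were DESeq2 1.42.0 and its size factors, other filters on low values, limma 3.58.1 after quantile normalization of log2 FPKM with 1 or 0.1 added, a replicate block, each library left out, and, added after seeing the data, removal of each library's lowess trend over GC content (known for 99.4% of the genes tested). Named were all 10 members, list genes called (up to 8 a list, largest change first) with examples that were not called, and the HIF machinery; *Bnip3l*, *Flt1*, *Ramp2*, *Ramp3*, *P4ha2*, *P4hb*, *Plod1*, *Ero1l*, *Hk2*, *Pfkfb3*, *Gapdh*, *Slc2a1*, *Ldha* and the genes called only without WT 3 were chosen after their values were seen. The members and lists were chosen with earlier results of these data known. Coordinates are from RefSeq, GRCm38.p6. Further marker lists gave 1 called gene among 4 smooth muscle genes (*Cnn1*, lower), 1 among 5 macrophage genes (*Cd14*, lower) and none among 5 erythroid, 4 adipocyte and 7 skeletal muscle genes.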

Additional observations from a re-analysis of the deposited data

How the results depend on the processing

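DESeq2 called 1820 lower and 1746 higher genes over the whole table, 3 of the 10 members (*Egln1*, *Egln3* and *P4ha1*), and 18 lower and 9 higher genes among the pathway lists, where edgeR called 1158, 1084, 1, 10 and 3. With the trend over GC content removed these were 483, 468, 1 (*Egln1* in place of *P4ha1*), 6 and 3. No member was called without a filter on low counts or with limma on log2(FPKM + 1) or log2(FPKM + 0.1), where 4, 3 and 3 members had an unadjusted p under 0.05; limma on log2(FPKM + 1) called 5 higher pathway genes. With each library left out in turn, between 2 and 2219 genes were lower and between 6 and 2363 higher over the table, 0 to 4 members were called, and 0 to 20 lower and 1 to 15 higher pathway genes. The 4 members were *Epas1*, *Egln1*, *Egln3* and *P4ha1*, called without WT 3, in a fit that called 32.5% of all genes. In each of the other 5 fits edgeR called none, with 2 to 4 members at an unadjusted p under 0.05. *Ndrg1* ran from -0.30 to 0.047 with 1 library left out, turning to 0.047 without WT 1 and 0.030 without WT 2, and the log2 ratio of *Epas1* to *Hif1a*, whose difference was 0.040 with all libraries and between -0.11 and 0.13 with 1 left out, turned without WT 3. The cause was not tested. The same-numbered libraries did not deviate together in all 3 pairs (r = -0.11, 0.26 and 0.16). With only 3 libraries a group, these values cannot show whether the numbers pair the animals. With the replicate number as a block in edgeR, 1 member was called, *Egln3* (adjusted p = 0.0420), and *P4ha1* was at 0.0636. Among the single genes, 278 of the alternative values kept direction and side of the threshold, 58 lost it, 7 gained it and 2 changed sign. Of the members, *Ankrd37* (27 to 198 counts a library) and *Adm* (72 to 123) had the fewest counts.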
